A study of Homo sapiens with 6 samples.

Results

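The nuclear genes whose names begin with NDUF were followed in Jurkat cells, a human leukaemic T-cell line, after exposure to BPAF. Members were the rows of the expression table whose Ensembl identifier maps to a protein-coding gene named NDUFA, NDUFAB, NDUFAF, NDUFB, NDUFC, NDUFS or NDUFV with a number, without read-through names, and 47 of the 60856 rows met this rule. The BPAF group received 1 µM BPAF, the usual abbreviation of the fluorinated bisphenol called bisphenol AF, and the DMSO group received 0.1% of the solvent DMSO. Each group had 3 libraries, which the labels call biological replicates of wild-type cells. The labels disagree on exposure, giving 12 h in the sample annotation and 24 h in the treatment protocol, and they describe 1 dose in 1 cell line. Libraries were made from poly(A)-selected RNA with a strand-specific kit.

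Complex I is the NADH dehydrogenase at the entry of the mitochondrial respiratory chain: it takes electrons from NADH, passes them to ubiquinone and pumps protons across the inner membrane. Its core subunits carry the flavin and the iron-sulfur clusters of the N module, which oxidises NADH, and of the Q module, which reduces ubiquinone, while mitochondrial DNA encodes the core of the membrane arm. Accessory subunits surround this core, and assembly factors build the modules without staying in the finished enzyme. Some NDUF names are historical: NDUFA4 is a subunit of complex IV, and its relative NDUFA4L2 is known as a hypoxia-induced gene.

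Library totals lay between 20253656 and 22617613 estimated counts in BPAF libraries and between 20745097 and 22117976 in DMSO libraries (two-sided exact permutation p = 0.9, where 0.1 is the smallest p that 3 against 3 allow). More genes had counts in BPAF libraries, 23626 ± 205, than in DMSO libraries, 22940 ± 216 (SD, n = 3 each; exact permutation p = 0.1), and the part of this difference in the results was not tested. The label was checked against markers: all 15 T-cell genes passed the filter on low counts, CD3E had 9961 to 11125 counts a library, and EPCAM, KRT19, CDH1, COL3A1 and DCN had 0 counts in every library. Of the markers of other cell types, the filter was passed by 1 of 5 B-cell genes (CD79A, 253 to 309 counts a library), 0 of 6 myeloid, 2 of 4 NK (NKG7 and KLRD1), 1 of 5 epithelial (KRT8), 1 of 5 fibroblast (COL1A1, 54 to 65 counts) and 2 of 3 erythroid genes (HBB and HBA1). KRT8 was higher in every BPAF library, with 13, 15.3 and 23.0 counts in BPAF libraries, against 8.80, 12.0 and 9 in DMSO libraries (log2 fold change 0.71; edgeR, adjusted p = 0.336). NKG7 had 48, 61 and 81 counts in BPAF libraries, against 50, 45 and 37 in DMSO libraries (log2 fold change 0.48; edgeR, adjusted p = 0.240). The part of these genes' cell types in the results was not tested. None of the T-cell genes passed the test between groups (edgeR, 0 of 15; 2 at an unadjusted p under 0.05; 0 by DESeq2 and by limma-voom), although 1 passed with no filter and 2 with the offset for length and GC content used further on (6 at an unadjusted p under 0.05).

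All 47 members were expressed above the filter on low counts. Levels between genes were compared in TPM, a unit that divides reads by transcript length and library size. The mean TPM over the 6 libraries ran from 948 for NDUFS5, an accessory subunit on the intermembrane-space side of the membrane arm, to 4.03 for NDUFA4L2, with a median of 145 and with 31 members above 100. NDUFS5 had 851, 918 and 887 TPM in BPAF 1, 2 and 3, against 1002, 959 and 1069 TPM in DMSO 1, 2 and 3. NDUFA4L2 had 4.26, 4.15 and 4.05 TPM in BPAF libraries, against 3.38, 4.02 and 4.30 TPM in DMSO libraries. The BPAF libraries were all below the DMSO libraries for NDUFS5, whereas the groups overlapped for NDUFA4L2.

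NDUFA13, a proximal-arm subunit also known as GRIM-19, was next at a mean of 702 TPM, followed by NDUFS6 of the N module at 480.0 TPM. These first 3 places were separated by gaps wider than the spread over libraries. Below them, 10 of the 12 distal-arm subunits lay between 260.1 and 381 TPM, and neighbours in the order overlapped in 34 of 46 pairs. Among the core subunits NDUFV2 was highest at 268 TPM. Apart from NDUFAF3 at 145 TPM, the assembly factors lay at 73.2 TPM or lower, down to 10.5 TPM for NDUFAF7.

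**Figure D1:**
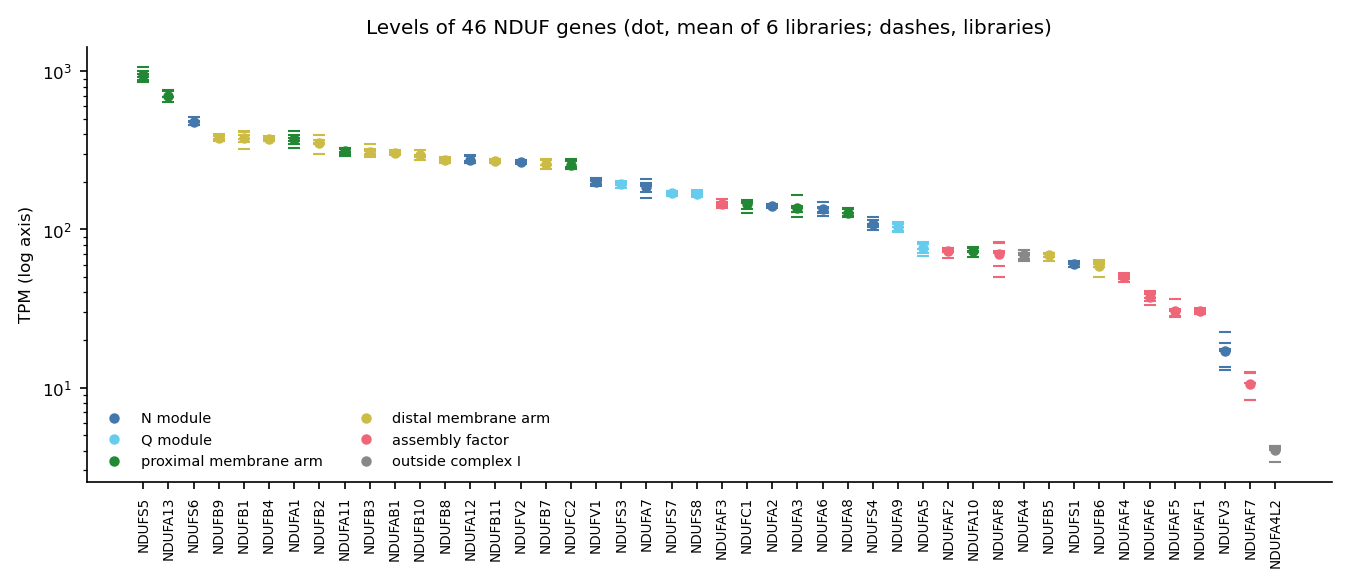
Level of 46 NDUF genes in TPM on a log axis; dots are means of the 6 libraries, dashes are single libraries, and colour gives the position in complex I. NDUFS5 stands highest at 948 TPM and NDUFA4L2 lowest at 4.03 TPM, with most assembly factors toward the low end.

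Most NDUF genes were slightly lower after BPAF, and few of them passed the test. In edgeR's quasi-likelihood test, adjusted over all 15490 genes tested at a threshold of 0.05, 7 members were lower and 1 was higher, whereas 3.4% of all genes were lower, 2.65% were higher and 6.06% were called in either direction. The lower genes were NDUFA4, NDUFA6, NDUFA5, NDUFAF4, NDUFA1, NDUFB3 and NDUFB2, with decreases between -12.7% and -16.7%. The higher gene was NDUFAF8, at 32.7%. The log2 fold change, BPAF over DMSO, was below 0 for 38 members, against 49.2% of all genes tested, and its median was -0.10 over the members, against 0.00 over all genes. Protein-coding genes, to which all members belong, leaned lower themselves. Of the 12335 tested in this fit, 511 were lower and 231 higher, 54.2% lay below 0, and the median was -0.01.

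At an unadjusted p under 0.05, 21 members were lower and 1 was higher, where 10.5% and 9.36% of all genes were. Every BPAF library lay below every DMSO library in 16 members, where 12.8% of all genes did so, and above in 2 members, where 12% did. Over protein-coding genes alone these shares were 15.3% below and 9.46% above. Of the 39 members that did not pass, log2 fold changes ran from -0.24 to 0.13. The SE of a member's log2 fold change had a median of 0.05. With other tools, 5 members were lower by DESeq2 (without independent filtering 2.41% of all genes were) and 6 by limma-voom (3.25%). With other settings of edgeR, 4 were lower with upper quartile scaling (2.58%), with protein-coding genes alone (3.13%) and with the replicate number as a block (2.9%). NDUFAF8 was higher in each of these 5 fits. In bulk RNA, fewer cells expressing a gene and less RNA per cell cannot be told apart.

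The summed level of the 47 genes, in CPM, counts scaled to library size with TMM factors, was 3174, 3223 and 3088 in BPAF 1, 2 and 3, against 3392, 3239.8 and 3507 in DMSO 1, 2 and 3. The difference between the group means was -6.45%, without an overlap between groups, though DMSO 2 lay close to BPAF 2. In the same unit all genes together summed to a mean of 989025 in BPAF and 1013570 in DMSO libraries, also without an overlap. As a share of the deposited counts, the members differed by -4.12%. Summed TPM was 9363, 9502 and 9182 in BPAF libraries, against 9792, 9580.3 and 9952 in DMSO libraries, a difference of -4.36%.

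**Figure D2:**
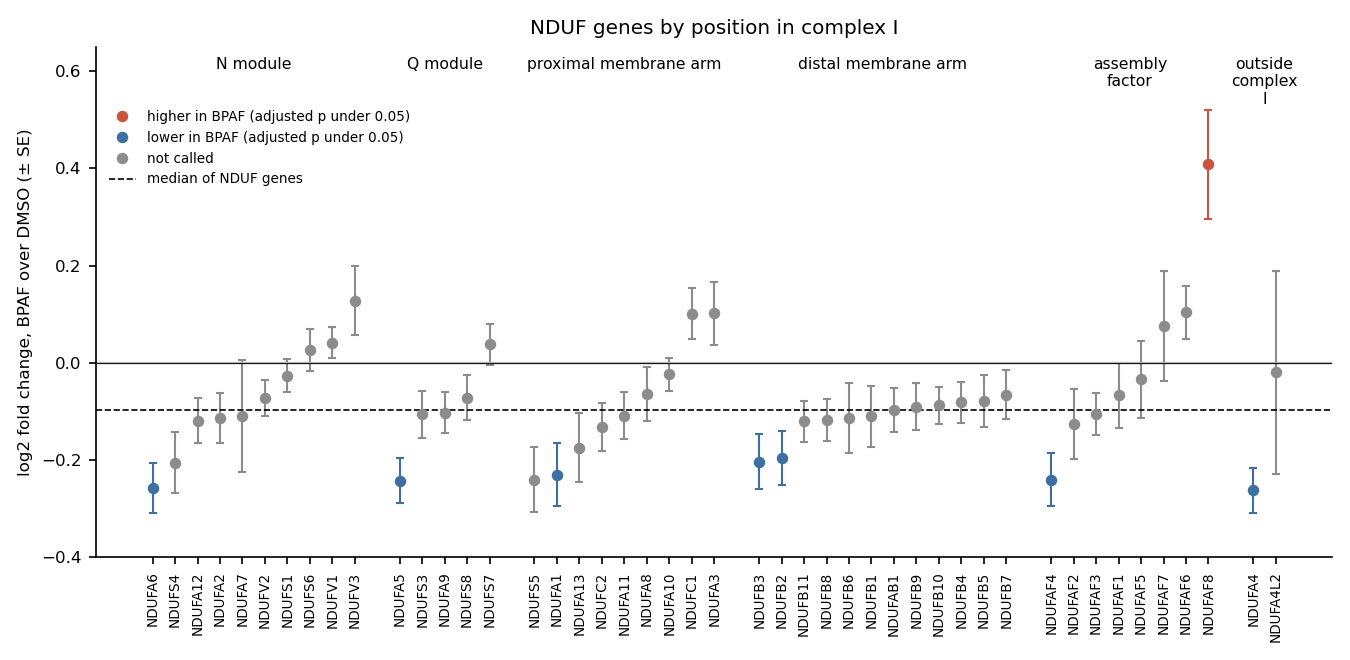
Log2 fold change, BPAF over DMSO, with its SE for 46 NDUF genes, grouped by position in complex I; blue genes were lower and the red gene higher at an adjusted p under 0.05. All 12 distal-arm genes lie below 0, and the dashed line marks the members' median of -0.10.

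Promoters are shown because nuclear respiratory genes are classically described as sharing sites for nuclear respiratory factor 1 (NRF1), and members that moved and members that did not can be set side by side. RefSeq promoter windows on GRCh38.p14, from 250 bases before to 50 bases after the listed start, were used for 38 of the 47 genes. Windows of NDUFC2, NDUFB5, NDUFA4L2, NDUFS5, NDUFB9, NDUFAF6 and NDUFA4 were not used here, nor was that of NDUFA5, whose listed start lay over 1000 bases outside the gene as GENCODE annotates it. Both strands were searched for 4 motifs: the NRF1 core (the first 10 capitals in the NDUFB4 line), the shorter NRF1 motif TGCGCA, which overlaps the core, the ETS core CCGGAAGT bound by factors such as GABPA, and the YY1 core AAGATGGC. The stretches below are 5′ to 3′ on the gene's strand, open 250 bases before the listed start and close at most 30 bases into an annotated GENCODE transcript, with motif matches in capitals. NDUFA6 (chr22:42090926-42091022, minus strand), NDUFAF4 (chr6:96897880-96898141, minus strand) and NDUFB2 (chr7:140696458-140696700, plus strand) were lower, and NDUFB4 (chr3:120596086-120596338, plus strand) holds the NRF1 core and was not called.
NDUFA6: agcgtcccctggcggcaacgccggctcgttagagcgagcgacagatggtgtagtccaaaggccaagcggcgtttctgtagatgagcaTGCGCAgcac
NDUFAF4: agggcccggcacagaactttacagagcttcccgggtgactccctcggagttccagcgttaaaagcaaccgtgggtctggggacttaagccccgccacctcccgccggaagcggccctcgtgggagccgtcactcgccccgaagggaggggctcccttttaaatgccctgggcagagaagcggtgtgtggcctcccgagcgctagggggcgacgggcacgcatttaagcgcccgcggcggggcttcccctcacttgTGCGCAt
NDUFB2: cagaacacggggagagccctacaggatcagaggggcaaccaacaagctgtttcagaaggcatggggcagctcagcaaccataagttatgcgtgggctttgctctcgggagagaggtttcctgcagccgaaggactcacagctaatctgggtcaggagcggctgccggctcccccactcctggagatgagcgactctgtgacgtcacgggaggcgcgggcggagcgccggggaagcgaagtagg
NDUFB4: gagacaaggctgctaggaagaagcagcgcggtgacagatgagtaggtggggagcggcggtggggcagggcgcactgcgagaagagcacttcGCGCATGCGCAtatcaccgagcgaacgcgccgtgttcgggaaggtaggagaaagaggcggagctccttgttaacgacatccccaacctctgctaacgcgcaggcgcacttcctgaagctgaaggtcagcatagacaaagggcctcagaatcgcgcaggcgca

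In these windows the NRF1 core occurred in 3 of 38 members (7.89%), against 1.36% of all 27305 windows and 1.75% of the 15843 windows of protein-coding genes. The shorter NRF1 motif occurred in 12 members (31.6%), against 8.42% of all and 10.8% of protein-coding windows. The YY1 core occurred in 6 members (15.8%), against 3.03% and 3.91%. The ETS core occurred in 2 members (5.26%), which lay above the 4.44% of all windows and below the 6.19% of protein-coding windows. Of the 5 lower genes with a window, 2 held the shorter NRF1 motif (NDUFA6, NDUFAF4), 1 held the YY1 core (NDUFA6) and none held the NRF1 or ETS core, while 10 of the 32 genes that were not called held the shorter motif and 3 held the NRF1 core. In NDUFA6 the YY1 core opened at base 26 from the listed start, beyond the printed stretch. The shorter NRF1 motif of NDUFA6 lay after base 68 of the window, where an annotated GENCODE transcript begins to match, and so within that transcript. The window of NDUFAF8, the higher gene, held none of the 4 motifs. The RefSeq start need not be the one used in these cells: 10 of the 38 windows lay wholly inside the gene as GENCODE annotates it. Among them were the windows of NDUFAF8 and of the lower genes NDUFA1, NDUFB2 (printed above) and NDUFB3. The comparison of lower genes with genes not called is limited by this.

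In the N module, 1 of 10 genes was lower and none was higher, where 3.4% and 2.65% of all genes were. This module and those below are too small for 1 call to be set apart from these shares. No test over a module was made. NDUFA6 (ENSG00000184983, chromosome 22, 42085525 to 42090955, minus strand) encodes an accessory subunit of the LYR family that docks acyl carrier protein at the join of the N and Q modules. It had 74.4, 74.5 and 70.1 CPM in BPAF libraries, against 85.2, 81.5 and 95.1 CPM in DMSO libraries. The groups did not overlap, and DMSO 3 stood highest. Its log2 fold change was -0.26 ± 0.05 (SE; edgeR, adjusted p = 0.00691). NDUFS4, an accessory subunit needed for stable attachment of the N module, averaged 30.6 ± 1.15 CPM in BPAF and 35.2 ± 2.62 CPM in DMSO libraries (SD, n = 3 each) and missed the threshold (log2 fold change -0.21; edgeR, adjusted p = 0.0580). The log2 fold changes of NDUFA12, NDUFA2 and NDUFA7 lay between -0.12 and -0.11, while those of NDUFS6 and NDUFV3, 0.03 and 0.13, lay above 0, though NDUFS6 lay at -0.04 with an offset for length and GC content.

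None of the 3 core subunits of the N module passed. NDUFV1, which binds the flavin and NADH, had 189, 182 and 179 CPM in BPAF libraries, against 173, 183 and 179 CPM in DMSO libraries. NDUFV2, an iron-sulfur subunit beside it, had 116, 113 and 116 CPM in BPAF libraries, against 121, 116 and 126 CPM in DMSO libraries. NDUFS1, the largest iron-sulfur subunit, had 134, 137 and 129.7 CPM in BPAF libraries, against 137, 136 and 135 CPM in DMSO libraries. The groups overlapped for all 3. The 95% intervals of the change were -1.80% to 7.83% for NDUFV1, -9.92% to 0.33% for NDUFV2 and -6.45% to 3.03% for NDUFS1.

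In the Q module, 1 of 6 genes was lower, where 3.4% of all genes were. NDUFA5 (ENSG00000128609, chromosome 7, 123536997 to 123558255, minus strand), an accessory subunit on the Q module, had 73.2, 71.3 and 76.9 CPM in BPAF libraries, against 88.3, 82.2 and 91.7 CPM in DMSO libraries. The groups were separate, and the log2 fold change was -0.24 ± 0.05 (SE; edgeR, adjusted p = 0.00355). NDUFA9, which stabilises the junction with the membrane arm, had a log2 fold change of -0.10 and was not called.

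No core subunit of the Q module passed. NDUFS7, which carries the last iron-sulfur cluster before ubiquinone, had 78.1, 79.8 and 74.1 CPM in BPAF libraries, against 76.6, 74.2 and 75.0 CPM in DMSO libraries. The groups overlapped for this gene. NDUFS3, an early-assembled structural core subunit, had 91.2, 90.2 and 80.5 CPM in BPAF libraries, against 90.0, 92.8 and 98.9 CPM in DMSO libraries. NDUFS8, another iron-sulfur subunit, had 62.6, 64.7 and 58.5 CPM in BPAF libraries, against 64.1, 65.8 and 65.2 CPM in DMSO libraries. BPAF 3 was the lowest library for NDUFS3 and NDUFS8, and the groups overlapped for both. The 95% intervals were -3.39% to 9.14% for NDUFS7, -13.6% to -0.21% for NDUFS3 and -11.0% to 1.74% for NDUFS8.

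Over both modules, 0 of 7 core subunits were called by edgeR, where 6.06% of all genes were, so that with 7 genes the count lies near that share; 1 had an unadjusted p under 0.05, and DESeq2 and limma-voom called 0. Of the 30 accessory subunits, 5 were lower, where 3.4% of all genes were, and none was higher. The median log2 fold change was -0.06 over the core and -0.11 over the accessory subunits, and the difference between these groups of genes was not tested. Summed core CPM was 729, 724 and 697 in BPAF libraries, against 723, 727 and 742 in DMSO libraries, which overlap. Summed accessory CPM was 2101, 2156 and 2046 in BPAF libraries, against 2296, 2155 and 2391 in DMSO libraries, where BPAF 2 and DMSO 2 were level.

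Of the 9 proximal membrane-arm genes, 1 was lower, where 3.4% of all genes were. NDUFA1 (ENSG00000125356, X chromosome, 119871487 to 119876662, plus strand), a small membrane-spanning subunit needed early in building this arm, had 44.1, 42.3 and 39.6 CPM in BPAF libraries, against 49.5, 44.4 and 53.9 CPM in DMSO libraries. DMSO 2 lay just above BPAF 1, and the log2 fold change was -0.23 ± 0.06 (SE; edgeR, adjusted p = 0.0426). NDUFS5 averaged 174 ± 7.83 CPM in BPAF and 206 ± 18.2 CPM in DMSO libraries (SD, n = 3 each; log2 fold change -0.24; edgeR, adjusted p = 0.0970). This result depended on the tool and on the libraries: NDUFS5 passed in DESeq2 (adjusted p = 0.000848), and in edgeR it passed without DMSO 2 (0.00122) or without DMSO 3 (0.0317). NDUFC1 and NDUFA3 lay above 0 at 0.10 each and were not called. NDUFA10 was lower in every BPAF library in CPM but higher in every BPAF library in TPM.

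All 12 distal membrane-arm genes had a log2 fold change below 0, from -0.20 to -0.07, though NDUFB6 lay at 0.07 in TPM, a scale on which the median of all genes was 0.08. Of these genes 2 passed the test as lower, where 3.4% of all genes did. NDUFB3 (ENSG00000119013, chromosome 2, 201071433 to 201085750, plus strand), a small single-pass subunit, had 53.0, 51.8 and 49.7 CPM in BPAF libraries, against 58.7, 54.4 and 64.9 CPM in DMSO libraries (log2 fold change -0.20 ± 0.06, SE; edgeR, adjusted p = 0.0406). NDUFB2 (ENSG00000090266, chromosome 7, 140690777 to 140722790, plus strand), likewise a small single-pass subunit, had 65.9, 68.3 and 60.1 CPM in BPAF libraries, against 74.0, 68.9 and 79.5 CPM in DMSO libraries (log2 fold change -0.20 ± 0.06, SE; edgeR, adjusted p = 0.0489). For both genes the groups stayed apart by a narrow margin, with DMSO 2 the lowest DMSO library. ADCK2 overlaps NDUFB2 on the same strand and lay at -0.03 on the log2 scale (edgeR, adjusted p = 0.849), and NDUFB2 counts were not whole numbers in any library. NDUFB11, an X-linked subunit of the arm, averaged 71.3 ± 1.65 CPM in BPAF and 77.5 ± 1.91 CPM in DMSO libraries (SD, n = 3 each; log2 fold change -0.12; edgeR, adjusted p = 0.0931). NDUFAB1, the mitochondrial acyl carrier protein, had a log2 fold change of -0.10 and was not called.

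The 8 assembly factors held 1 lower and 1 higher gene, where 3.4% of all genes were lower and 2.65% higher. NDUFAF4 (ENSG00000123545, chromosome 6, 96889313 to 96897881, minus strand), which works with NDUFAF3 on the Q module, had 40.1, 38.2 and 37.2 CPM in BPAF libraries, against 46.9, 43.3 and 46.3 CPM in DMSO libraries (log2 fold change -0.24 ± 0.05, SE; edgeR, adjusted p = 0.0113). The groups were separate in CPM but not in TPM, where NDUFAF4 averaged 49.5 ± 2.38 in BPAF and 49.9 ± 2.43 in DMSO libraries (SD, n = 3 each). NDUFAF3 itself had a log2 fold change of -0.11 and was not called.

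NDUFAF8 (ENSG00000224877, chromosome 17, 81239239 to 81241281, plus strand) encodes a small partner that stabilises NDUFAF5, the arginine hydroxylase acting on NDUFS7. It had 16.6, 19.8 and 19.3 CPM in BPAF libraries, against 12.9, 12.2 and 16.9 CPM in DMSO libraries. BPAF 1 lay just under DMSO 3, so the groups overlapped in CPM, and the log2 fold change was 0.41 ± 0.11 (SE; edgeR, adjusted p = 0.0432). The call held in 2 of the 6 fits that left out 1 library, those without BPAF 1 (edgeR, adjusted p = 0.0458) and without DMSO 3 (0.00379); without BPAF 2, BPAF 3, DMSO 1 or DMSO 2 the adjusted p was 0.139, 0.172, 0.178 and 0.132. The log2 fold change of NDUFAF5 itself was -0.03 (edgeR, adjusted p = 0.871), and NDUFAF6, at 0.10, was higher in every BPAF library without passing.

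Outside complex I, NDUFA4 (ENSG00000189043, chromosome 7, 10931951 to 10940256, minus strand) had the smallest p of the 47 genes. It had 76.8, 78.7 and 79.2 CPM in BPAF libraries, against 91.2, 88.6 and 102 CPM in DMSO libraries. Its BPAF libraries lay within a narrow band below all DMSO libraries (log2 fold change -0.26 ± 0.05, SE; edgeR, adjusted p = 0.00283). NDUFA4L2 had 2.50, 2.50 and 2.35 CPM in BPAF libraries, against 2.15, 2.48 and 2.83 CPM in DMSO libraries. At 47 to 58 counts a library its change could not be resolved: the 95% interval was -27.1% to 33.5%.

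**Figure D3:**
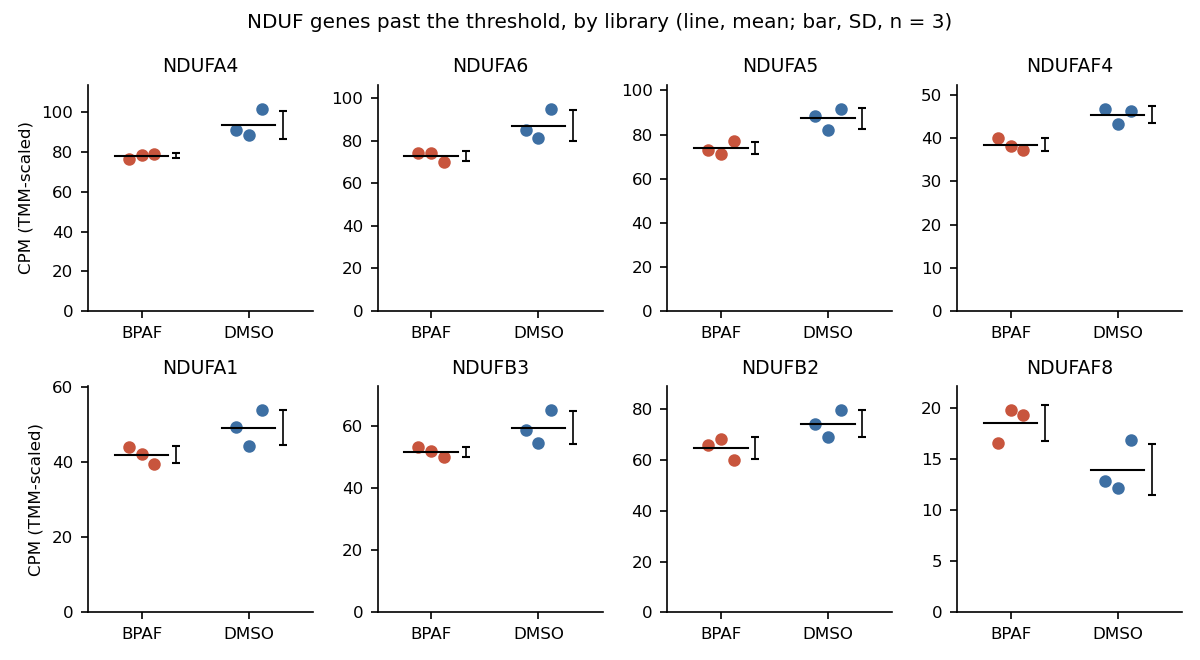
CPM in each library for the 8 NDUF genes past the threshold, BPAF in red and DMSO in blue, with the mean as a line and the SD as a bar (n = 3 each); axes start at 0. The groups are separate for the 7 lower genes, while for NDUFAF8 the lowest BPAF library (16.6 CPM) lies under the highest DMSO library (16.9 CPM).

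The size of the difference depended on the library. Set against the mean of the DMSO libraries on the log2 CPM scale, the members' median was -0.08, -0.07 and -0.13 in BPAF 1, 2 and 3, against 0.00, -0.06 and 0.06 in DMSO 1, 2 and 3. DMSO 2 was thus about as low as BPAF 1 and BPAF 2, and 37 of the 47 genes were below the DMSO mean in it. Setting the members against DMSO 2 alone, 28, 26 and 33 were lower in BPAF 1, 2 and 3. BPAF 3 held the lowest value of all 6 libraries for 24 members and DMSO 3 the highest for 27. Over all 15490 genes the same medians lay within 0.01 of 0 in every library.

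Leaving out DMSO 2 gave 12 lower and 0 higher members in edgeR, where 3.4% of all genes were lower, and leaving out DMSO 3 gave 6 lower and 1 higher, where 2.22% were lower. Without BPAF 3 (1.44% of all genes lower) or without DMSO 1 (1.7%), 3 members were lower and none was higher: NDUFA4, NDUFA5 and NDUFA6. These 3 genes passed in each of the 6 fits without 1 library. NDUFAF4 passed in 4 of them, failing without BPAF 3 (edgeR, adjusted p = 0.0642) and without DMSO 1 (0.0621). NDUFB2 passed in 2 of them, and NDUFA1 and NDUFB3 in 1 each, the fit without DMSO 2. The members' median stayed between -0.12 and -0.07 in these 6 fits.

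**Figure D4:**
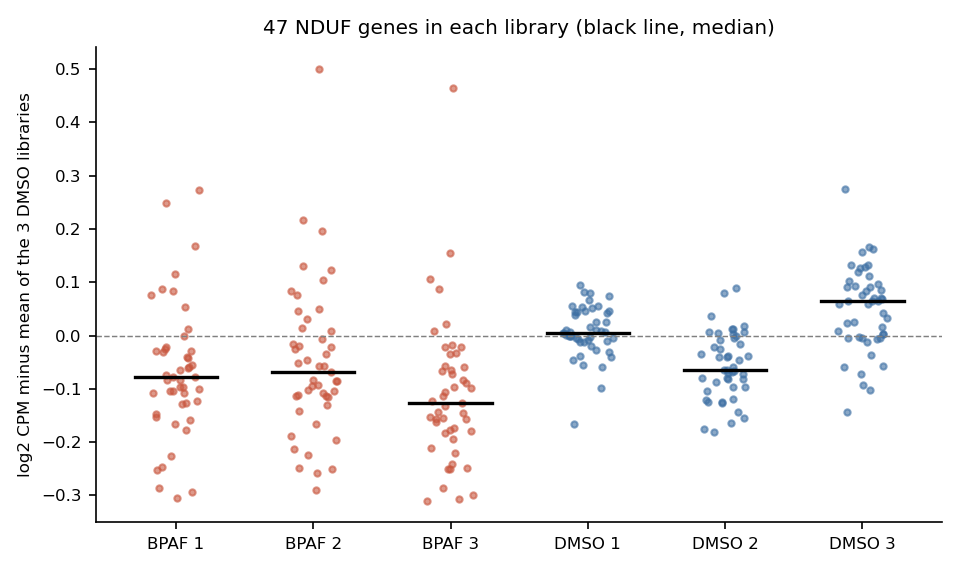
Each dot is one of the 47 NDUF genes, plotted as its log2 CPM minus the mean of the DMSO libraries, in each BPAF library (red) and each DMSO library (blue); black lines are medians. The medians are -0.08, -0.07 and -0.13 in BPAF libraries, against 0.00, -0.06 and 0.06 in DMSO libraries.

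On the deposited TPM scale the median over all genes lay higher than in CPM. In a limma fit on log2(TPM + 1) the median log2 fold change was 0.08 over all genes and -0.03 over the members, where the edgeR fit gave 0.00 and -0.10. With TPM rescaled by TMM factors, an alternative chosen after seeing the data, the medians were 0.01 and -0.11. Of the 38 genes below 0 in CPM, 31 were below 0 in TPM as deposited, and 7 lay above 0 on a scale whose median was itself above 0. No member passed in the fit on deposited TPM, and 1 of 16351 genes passed in all (0.00612%). An unadjusted p under 0.05 in this fit was found for 15 members, 9 of them lower, and for 16.5% of all genes. Every BPAF library lay below every DMSO library in TPM in 10 members and above in 6. The shares of all genes separated in this way in TPM were not counted. Of the 7 genes lower in edgeR, 5 had every BPAF library below every DMSO library in TPM, the exceptions being NDUFA5 and NDUFAF4.

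Base composition, and among protein-coding genes also length, moved with the fold changes. Exons of the members had a median summed length of 2475 bases, against 5100 bases over the protein-coding genes tested. Across genes, Spearman's rho of the log2 fold change with exon length was 0.32 over the 47 members and 0.16 over 12335 protein-coding genes. With GC content it was 0.26 and 0.23. Over all tested genes with annotation, rho was 0.03 with exon length and 0.16 with GC content. The genes share the same 6 libraries. Of 15 members under 45% GC 5 were lower, of 18 members between 45% and 55% GC 2 were lower, and of 14 members from 55% GC up none was lower and 1 was higher. Among protein-coding genes 7.26%, 3.08% and 1.45% were lower in these classes. With an offset for length and GC in edgeR, 18 members were lower and 0 higher, where 6.58% of all genes were lower, and their median log2 fold change was -0.14, against -0.03 over all genes. NDUFAF8 did not pass in that fit (edgeR, adjusted p = 0.0712).

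The partners of these genes were set against the same shares over all genes, 3.4% lower and 2.65% higher. Of the 7 mitochondrially encoded subunits of complex I 1 was lower: MT-ND5, a proton-pumping subunit at the tip of the membrane arm, with 1971, 1900.1 and 2017 CPM in BPAF libraries, against 2179, 2080 and 2349 CPM in DMSO libraries (log2 fold change -0.17 ± 0.04, SE; edgeR, adjusted p = 0.0248). The other 6 had log2 fold changes between -0.18 and 0.02. All 7 were below the DMSO mean in DMSO 2 as well as in BPAF 3. Of 11 assembly factors without an NDUFAF name 1 was lower, TMEM70, which also serves complex V (46.6, 47.2 and 44.6 CPM in BPAF libraries, against 52.2, 53.8 and 50.3 CPM in DMSO libraries; edgeR, adjusted p = 0.0371). In TPM the groups overlapped for MT-ND5 and for TMEM70, which averaged 54.6 in BPAF and 54.7 in DMSO libraries.

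Of 10 regulators of mitochondrial gene expression 9 could be tested, with 2 lower and 1 higher. TFAM, which packages mitochondrial DNA and helps start its transcription, had 127, 127 and 120.4 CPM in BPAF libraries, against 144, 139.9 and 143 CPM in DMSO libraries (log2 fold change -0.19 ± 0.03, SE; edgeR, adjusted p = 0.0032). GABPA, the ETS factor also called NRF2 alpha, had 86.9, 84.4 and 84.2 CPM in BPAF libraries, against 93.7, 95.6 and 96.1 CPM in DMSO libraries (log2 fold change -0.16 ± 0.04, SE; edgeR, adjusted p = 0.0161). The groups were separate for both genes, with the DMSO libraries close together. PPRC1, a coactivator of the PGC-1 family, was higher (192, 184 and 187 CPM in BPAF libraries, against 171, 179 and 171 CPM in DMSO libraries; edgeR, adjusted p = 0.0473). The gene of NRF1 itself lay at -0.01 (log2 fold change; edgeR, adjusted p = 0.964), and PPARGC1A had 0 counts in every library.

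Nuclear subunits of the other respiratory complexes leaned the same way. In complexes II to V, 13 of 40 genes were lower and none was higher, where 3.4% and 2.65% of all genes were. Their median log2 fold change was -0.13, against 0.00 over all genes. In the fit on deposited TPM it was -0.06, against 0.08 over all genes. No test of the difference from the NDUF genes was made. Complex IV held 5 lower genes of 10 and the lowest median, -0.23, complex V 6 of 17, and complexes II and III 1 each of 4 and 9 (SDHD and UQCR10). The genes with the smallest p had log2 fold changes of -0.23 (COX6C), -0.25 (COX7B) and -0.23 (COX5B) in complex IV, and of -0.30 (ATP5F1C), -0.23 (ATP5MG) and -0.22 (ATP5PO) in complex V. In TPM the groups overlapped for COX7B and were separate for the others named here. Against the DMSO mean, the 40 genes had medians of -0.14, -0.09 and -0.16 in BPAF 1, 2 and 3, against 0.00, -0.08 and 0.06 in DMSO libraries, so DMSO 2 was low for them too.

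**Figure D5:**
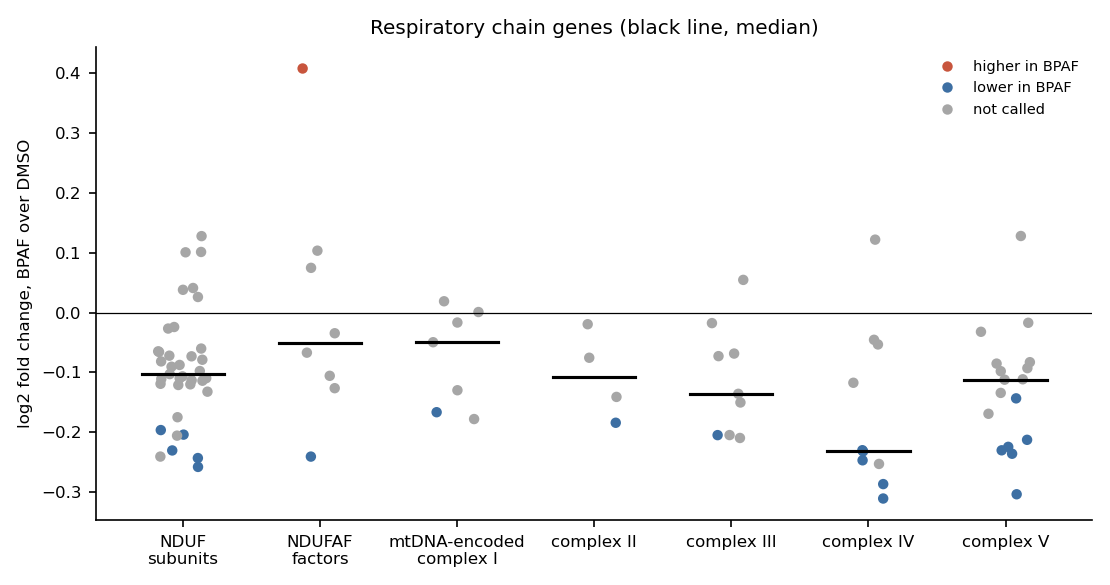
Log2 fold change, BPAF over DMSO, of nuclear NDUF subunits, NDUFAF assembly factors, mitochondrially encoded complex I subunits and nuclear subunits of complexes II to V; blue dots were lower, the red dot higher at an adjusted p under 0.05, and black lines are medians. The medians are -0.10 for NDUF subunits and -0.23 for complex IV.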

How the data were processed

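The authors deposited 1 table of estimated counts and 1 of TPM per gene for the 6 libraries. Per the submitters' processing notes, FastQC, cutadapt, HISAT2 and featureCounts were used with GRCh38; the settings, annotation and strand setting are not given in the sources used here. Deposited estimated counts were not whole in at least 1 library for 61.7% of the members, and were rounded to whole numbers. Of 60856 rows, 60664 had Ensembl identifiers and 192 were assembled loci. Coordinates and gene types came from GENCODE release 29 on GRCh38. Symbols came from a separate list of gene names, or from GENCODE where that list held none. Each member's symbol equals its GENCODE name.

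Counts were tested with edgeR 4.0.16 (R 4.3.3; filterByExpr, TMM, robust quasi-likelihood, Benjamini-Hochberg over 15490 genes, threshold 0.05), with BPAF over DMSO and no covariate. An SE is the size of the log2 fold change over the square root of F, and intervals of 95% use the test's degrees of freedom. Alternatives used DESeq2 1.42.0, limma 3.58.1 (voom, or log2 of the authors' TPM plus 1 or 0.1, at least 0.5 TPM in 3 libraries), other scalings and filters, a replicate block, and an offset fitted to GC content and exon length (splines of 4 degrees of freedom). The procedure was tested on simulated counts with 200 genes changed, all taken from genes above a minimum mean count. Counts were drawn independently for each gene with the trended dispersion, without shifts shared by genes within a library. In this simulation edgeR recovered 58.5% of genes changed 1.2-fold, 89% of those changed 1.5-fold and 97.5% of those changed 2-fold. False calls made up 4.10%, 2.20% and 3.47% of the genes called. Changes of 1.2-fold or less can thus be missed. These rates need not hold for the real libraries, where the members' median differed between libraries of the same group. Intervals cover the spread between these libraries.

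The members, gene lists, motifs and tests were chosen with earlier results of these data known. Values in every library are given for members past the threshold, for core subunits other than 1 gene that is not reported here by itself, for NDUFA4L2 and for the highest and lowest member by TPM; members with an adjusted p of 0.05 to 0.1 have means, and at most 3 called genes are named per pathway list. Every pair of libraries differed by more than counting noise (chi-square over degrees of freedom 2.38 to 7.68).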

Additional observations from a re-analysis of the deposited data

How the results depend on the processing

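The members' median log2 fold change stayed below 0 under every alternative run. It moved to -0.03 in the limma fits on TPM (-0.030 with a pseudocount of 1, with 0.1 and with no filter). Members called numbered 8; there were 5 (1 higher, 4 lower) with upper quartile scaling, 5 with protein-coding genes alone, 18 with the length and GC offset, and 0 in the limma fits on TPM and on TMM-scaled TPM, an alternative chosen after seeing the data. Over all genes 938 were called, against 0 on TMM-scaled TPM. The fits on TPM plus 1, TPM plus 0.1 and TPM with no filter called 1, 2 and 0. Upper quartile scaling turned the balance over all genes to 461 higher and 400 lower, from 411 and 527. Without 1 library, 3 to 12 members and 322 to 861 genes were called, the fewest genes without BPAF 1 (322), BPAF 3 (392) and DMSO 1 (482). DESeq2 called 6 members, adding NDUFS5 and omitting NDUFA1, NDUFB2 and NDUFB3. The causes were not tested.

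Replicate numbers did not pair the libraries: deviations of same-numbered libraries correlated at 0.00, -0.04 and 0.01. With the replicate number as a block, 5 members (1 higher, 4 lower) were called; NDUFA1, NDUFB2 and NDUFB3 were not.

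Signs turned for the members named here, none of them called. In the fits on TPM plus 1, plus 0.1 and with no filter, the log2 fold change was 0.10, 0.10 and 0.10 for NDUFA10, 0.077, 0.095 and 0.077 for NDUFA4L2, 0.0073, 0.0074 and 0.0073 for NDUFA8, 0.0060, 0.0062 and 0.0060 for NDUFAF1, 0.14, 0.14 and 0.14 for NDUFAF5, and 0.066, 0.067 and 0.066 for NDUFB6. On TMM-scaled TPM it was 0.017 for NDUFA10, 0.010 for NDUFA4L2, 0.056 for NDUFAF5, -0.068 for NDUFAF7 and -0.035 for NDUFS7, and with the offset -0.044 for NDUFS6. Without 1 library it ranged from -0.12 to 0.080 for NDUFA4L2, -0.12 to 0.026 for NDUFAF5, -0.040 to 0.19 for NDUFAF7 and -0.013 to 0.050 for NDUFS6.

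Depth limits NDUFA4L2 most, with 47 to 58 counts a library. Counts alone leave reads of overlapping genes, and of genes on the other strand, unresolved.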

Other observations

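YJEFN3, which overlaps NDUFA13 on the same strand, was higher after BPAF at 3.29 ± 0.64 CPM in BPAF and 1.77 ± 0.59 CPM in DMSO libraries (SD, n = 3 each; log2 fold change 0.90; edgeR, adjusted p = 0.033). NDUFA13 averaged 131 CPM in BPAF and 148 CPM in DMSO libraries, and the sum of both genes 134 ± 5.99 and 149 ± 13.2 CPM. The 63 annotated NDUF pseudogenes held 16.7 to 35.1 counts a library in all, 10 of them with any count.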
